A study of Mus musculus with 20 samples.

Results

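The 76 genes described here carry symbols given to proteins of the mitochondrial ribosome. They were chosen by name, as every gene whose annotated symbol is Mrpl or Mrps followed by a digit and that had a probe set naming that gene alone. Of the 18193 genes represented on the array, 47 carried a large subunit symbol (Mrpl) and 29 a small subunit symbol (Mrps). Each was read from its brightest probe set by the mean over the 20 arrays, out of 156 such probe sets, and 42 of the 76 genes had more than 1. A further 4 probe sets named several genes and were left out, and with them Mrpl30 and Mrpl53, 2 genes found on such probe sets alone. The genes lie on 17 chromosomes.

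Mitochondria keep their own ribosomes, which translate the few proteins encoded by mitochondrial DNA, all of them subunits of the respiratory chain and the ATP synthase. The proteins of this ribosome are encoded in the nucleus, made in the cytosol and imported, while its RNAs come from mitochondrial DNA. Some of its proteins have bacterial homologues, such as uL14 or uS5, and others, such as mL41 or mS27, are found in mitochondrial ribosomes only. In erythroid cells mitochondria also carry out the first and last steps of heme synthesis, and they are cleared from the cell as it matures. Symbols do not always give the subunit: Mrps18a and Mrps30 belong to the large subunit, and Mrps36 is now regarded as a part of the 2-oxoglutarate dehydrogenase complex.

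The cells were TER119-negative erythroid progenitors (CFU-E, colony-forming units erythroid) from livers of BALB/c embryos at day 13.5. They were enriched by antibody and magnetic bead removal of other cells, and not by a positive marker. In the series with the hormone erythropoietin (Epo, 0.5 U/ml), 1 array was made at each of 12 times, hourly at 0 to 8 h and at 14, 19 and 24 h. In the untreated series, called no Epo here, 1 array was made hourly at 0 to 7 h, 8 arrays in all. The labels describe the cells before 0 h in different ways, as starved of Epo for 1 h after fresh sorting and as cultured for 12 to 14 h with Epo, and this touches both series. Whether each time had its own culture or animals is not stated, so the p-values here reflect how far single arrays scatter from hour to hour, and part of that may be technical. Precision is limited by the 20 arrays.

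The erythroid label held on most of its markers: the transcription factor genes Gata1, Klf1 and Tal1, the receptor gene Epor and the transferrin receptor gene Tfrc were bright on every array, and the median of the 10 erythroid markers lay at a log2 value between 9.74 and 11.48. The probe set for Hba-a1 was dim throughout. The 8 macrophage markers were dim, with array medians of 2.98 to 3.58, and the 11 granulocyte markers had array medians of 4.14 to 5.94. Some of the granulocyte genes were bright: the log2 of the summed level of the 11 was 9.43 at 0 h with Epo and 11.02 at 0 h without, and at 1 to 7 h it was 8.58 to 9.01 with Epo and 8.62 to 10.26 without. Mpo, which encodes the granule enzyme myeloperoxidase, was 7.62 at 0 h with Epo and 9.88 at 0 h without. Hepatocyte markers were present. Their median over 11 genes was 11.01 at 0 h with Epo and 9.61 at 0 h without, it lay at 8.23 to 10.16 at 1 to 7 h with Epo against 7.16 to 8.94 without, and it was 4.88 to 6.64 at 14 to 24 h. The log2 of their summed level was 12.87 to 14.51 with Epo and 12.35 to 13.64 without at 1 to 7 h, and no marker value was 0. The array at 24 h had the narrowest spread of values (SD over all probe sets 2.31, against 2.42 to 2.58 on the other 19 arrays). In bulk RNA of this kind, fewer cells of a type and less RNA per cell cannot be told apart.

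Promoters are shown for 5 members whose responses differ and whose windows hold the sequence motifs counted later. Mrpl17, a large subunit protein at the exit of the peptide tunnel, and Mrps18c, a small subunit protein, were among the members furthest above their values without Epo. Mrpl34 and Mrpl36, short proteins of the large subunit, had an Epo effect that grew over the hours. Mrpl39, a large subunit protein found in mitochondria only, was lower with Epo. Each run is the 250 bases before the gene's start in RefSeq (GRCm38.p6), 5′ to 3′ on the gene's strand. Mrpl17 is at chr7:105811088-105811337 (minus strand), Mrps18c at chr5:100798509-100798758 (plus), Mrpl34 at chr8:71464676-71464925 (plus), Mrpl36 at chr13:73330759-73331008 (plus) and Mrpl39 at chr16:84735245-84735494 (minus). Capitals mark matches, on either strand, to the letters searched for nuclear respiratory factor 1 (GCGCATGCG), for ETS factors (CCGGAAG), for YY1 (AAGATGG) and for an E-box (CACGTG).
Mrpl17: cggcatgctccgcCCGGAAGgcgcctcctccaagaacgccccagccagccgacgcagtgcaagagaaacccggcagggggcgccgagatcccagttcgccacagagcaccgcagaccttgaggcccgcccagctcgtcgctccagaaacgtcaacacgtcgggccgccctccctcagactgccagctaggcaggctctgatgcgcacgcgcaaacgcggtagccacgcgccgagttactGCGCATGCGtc
Mrps18c: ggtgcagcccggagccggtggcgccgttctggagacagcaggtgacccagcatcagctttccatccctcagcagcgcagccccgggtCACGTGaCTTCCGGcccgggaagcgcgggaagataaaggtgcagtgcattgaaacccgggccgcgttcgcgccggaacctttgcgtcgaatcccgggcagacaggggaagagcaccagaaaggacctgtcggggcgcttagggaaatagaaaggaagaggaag
Mrpl34: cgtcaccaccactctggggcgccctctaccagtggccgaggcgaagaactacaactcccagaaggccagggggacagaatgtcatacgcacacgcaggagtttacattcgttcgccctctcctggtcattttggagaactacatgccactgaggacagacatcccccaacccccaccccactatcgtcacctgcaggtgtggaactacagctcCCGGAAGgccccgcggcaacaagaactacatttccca
Mrpl36: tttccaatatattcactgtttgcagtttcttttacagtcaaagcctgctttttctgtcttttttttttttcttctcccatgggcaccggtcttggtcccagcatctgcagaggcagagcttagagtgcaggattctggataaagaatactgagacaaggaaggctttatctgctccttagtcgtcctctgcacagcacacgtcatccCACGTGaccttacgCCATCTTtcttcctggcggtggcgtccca
Mrpl39: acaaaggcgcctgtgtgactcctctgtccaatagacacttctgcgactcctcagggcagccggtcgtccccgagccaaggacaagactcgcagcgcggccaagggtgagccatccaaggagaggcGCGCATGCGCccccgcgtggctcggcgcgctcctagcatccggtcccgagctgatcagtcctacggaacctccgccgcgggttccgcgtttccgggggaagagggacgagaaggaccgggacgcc
In the Mrpl17 run the ETS letters stand at -237 to -231 and the NRF1 letters at -11 to -3 from the start. The Mrps18c run has the E-box at -163 to -158 and the ETS letters at -156 to -150. The Mrpl34 run has the ETS letters at -37 to -31, the Mrpl36 run the E-box at -43 to -38 and the YY1 letters at -29 to -23, and the Mrpl39 run the NRF1 letters at -125 to -116, read on both strands.

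The first comparison asked how the genes differed with Epo at 1 to 7 h. Most were higher than without Epo: 59 of 76 were called higher and 3 lower, while 14 did not pass the test (limma with 7 matched times as blocks, adjusted p under 0.05 by Benjamini-Hochberg across the 18193 genes). Over all genes, 18.2% were called higher and 20.2% lower. Higher and lower here set the series with Epo against the series without at the same hours, and the course of each series over time is given further on. The median log2 difference, Epo minus no Epo, was 0.56 over the members and 0.03 over all genes, and the members ranged from -0.54 to 1.94. Because the members were bright (means of 7.40 to 11.87 on the log2 scale, against a median of 4.91 over all genes), they were also set beside the 4437 genes in the same range of means, of which 28.4% were called higher and 36% lower, with a median of -0.08. Both subunits took part: 38 of 47 genes with a large subunit symbol were higher and 1 lower (median 0.67), and 21 of 29 with a small subunit symbol were higher and 2 lower (median 0.47). By kind of protein, 23 of 28 bacterial-type and 16 of 21 mitochondria-specific large subunit genes were higher, as were 12 of 16 bacterial-type and 7 of 10 mitochondria-specific small subunit genes. Whether the subunits or kinds differ was not tested.

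**Figure D1:**
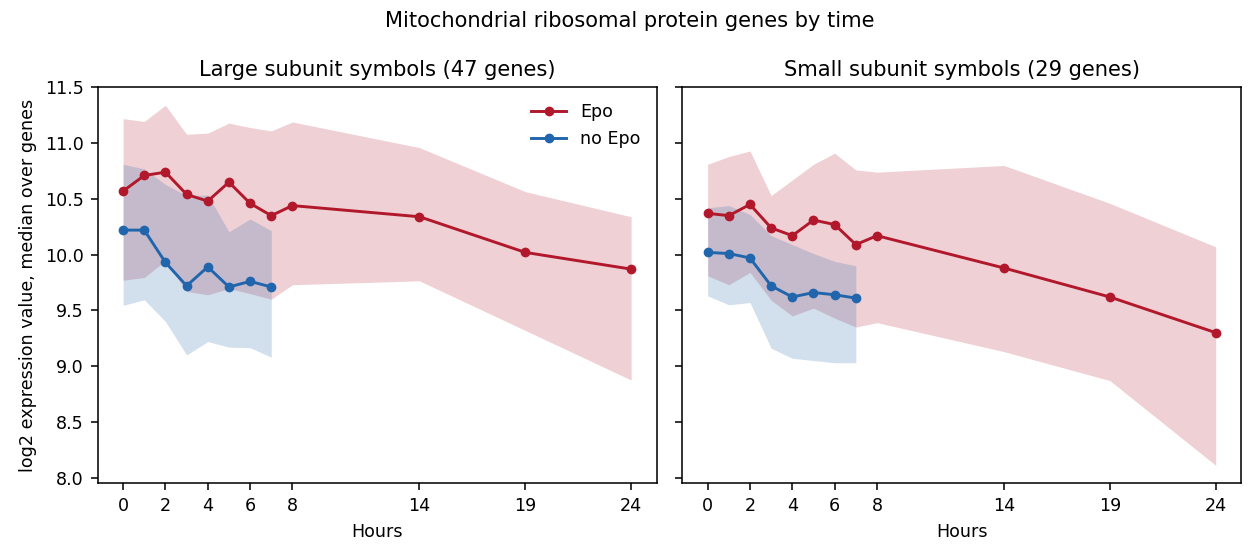
Median log2 expression value over the genes (points and lines) and the middle 50% of genes (bands) against hours, with Epo in red and without in blue, for the large subunit symbols (left) and small subunit symbols (right), 1 array per time. The blue line falls over 7 h in both panels while the red line changes less to 8 h and is lower at 19 h and 24 h.

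Among the large subunit genes the largest difference was that of Mrpl41, a mitochondria-specific protein (on chromosome 2). Its log2 value at 1 to 7 h was 11.43 at the lowest, 11.78 at the median and 12.02 at the highest with Epo, against 9.37, 9.76 and 10.74 without. Every array with Epo was above every array without. The difference was 1.94 ± 0.13 (SE, 7 pairs), a fold of 3.82 (limma adjusted p = 1.4e-06). With Epo it was not called as changing over 0 to 8 h (slope 0.01 ± 0.02 per hour, limma adjusted p = 0.79), and without Epo it fell over 0 to 7 h (-0.15 ± 0.05 per hour, limma adjusted p = 0.043).

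Mrpl14 (on chromosome 17) encodes uL14, the protein at the subunit interface to which the assembly factor MALSU1 binds. It lay at 9.81, 9.96 and 10.11 (lowest, median, highest) with Epo and at 7.82, 7.90 and 8.52 without. The groups were separated by more than the whole spread of either, and the difference was 1.89 ± 0.11 (limma adjusted p = 9.4e-07). Mrpl57, a short mitochondria-specific protein, lay at 12.16, 12.35 and 12.50 with Epo against 10.42, 10.90 and 11.23 without, again with no overlap, a difference of 1.51 ± 0.10 (limma adjusted p = 1.3e-06). Mrpl20, a homologue of the bacterial protein bL20 that binds the large ribosomal RNA early in assembly, lay at 11.51, 11.66 and 11.71 with Epo against 9.65, 10.06 and 11 without. Its arrays with Epo scarcely moved (SD 0.07, n = 7), those without did (SD 0.50, n = 7), and the difference was 1.44 ± 0.15 (limma adjusted p = 2.7e-05).

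Among the small subunit genes the difference was largest in Mrps33, Mrps35 and Mrps18c. Mrps33, a mitochondria-specific protein (on chromosome 6), lay at 10.97, 11.10 and 11.31 with Epo against 9.11, 9.34 and 10.13 without, a difference of 1.61 ± 0.12 with no overlap (limma adjusted p = 2.7e-06). Mrps35, also mitochondria-specific, lay at 9.98, 10.15 and 10.73 with Epo against 8.26, 8.56 and 9.88 without. These groups did not overlap either, and they differed by 1.44 ± 0.12 (limma adjusted p = 6.5e-06). In all, 15 members were higher by at least 1 on the log2 scale, a doubling, as were 2.86% of all genes. In 41 of the 76 genes every array with Epo at 1 to 7 h was above every array without, which held for 6.56% of all genes, and in 1 it was below (7.31% of all genes). For counts by size or by overlap, here and later, the share among genes in the same range of means was not computed.

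**Figure D2:**
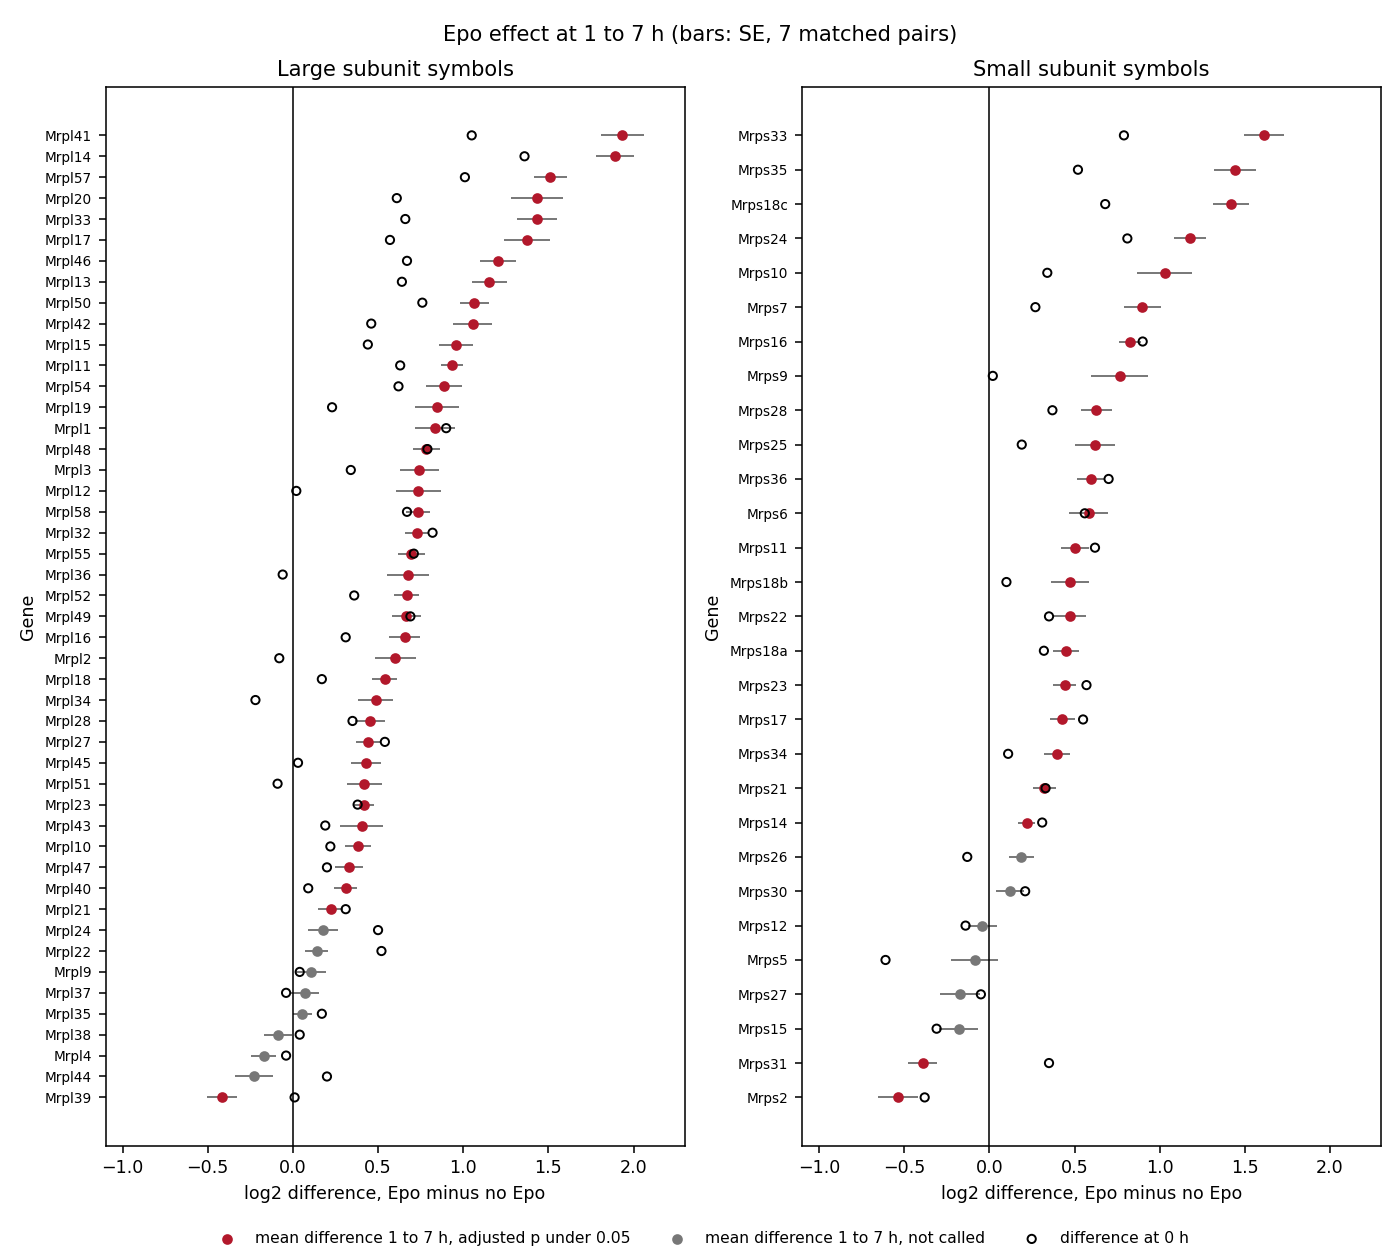
Difference between Epo and no Epo for each gene on the log2 scale, large subunit symbols on the left and small subunit symbols on the right. Filled points average the 7 matched differences (1 to 7 h), with the SE, in red where the adjusted p was under 0.05 and grey otherwise, and open circles are the difference at 0 h. Most filled points lie right of 0, from Mrps2 at -0.54 to Mrpl41 at 1.94, and most open circles lie right of 0 too.

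The 3 members called lower with Epo than without were Mrps2, Mrpl39 and Mrps31, none of which was called as falling over time with Epo. Mrps2, the homologue of the bacterial protein uS2, lay at 8.39, 8.81 and 9.01 (lowest, median, highest) with Epo against 8.90, 9.09 and 9.89 without, a difference of -0.54 ± 0.12 (limma adjusted p = 0.0034). The highest value with Epo was above the lowest without, so these groups overlapped. Mrpl39 lay at 9.90, 10.13 and 10.22 with Epo against 10.22, 10.56 and 10.63 without (-0.42 ± 0.09, limma adjusted p = 0.0032), and its groups touched at 1 h. Mrps31, a mitochondria-specific small subunit protein, lay at 8.62, 8.78 and 8.88 with Epo against 8.94, 9.20 and 9.24 without (-0.39 ± 0.09, limma adjusted p = 0.0037). It was the single member with every array with Epo below every array without.

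The series differed already at 0 h, and the labels do not settle how the cells had been exposed to Epo by then. At 0 h the value with Epo was above that without in 64 of 76 members, by at least 0.5 in 29 and by at least 1 in 3, and the median difference was 0.35 against -0.01 over all genes. Mrpl14 already differed by 1.36, Mrpl41 by 1.05 and Mrpl57 by 1.01, while Mrps5 was lower by 0.61 with Epo. When each gene's own 0 h difference was subtracted and a linear drift of the matched differences allowed, 10 of the 59 higher members and none of the 3 lower ones passed the test. Over all genes that count was 1.34% higher and 2.39% lower. The 10 were Mrps35 (0.92 ± 0.20, limma adjusted p = 0.024), Mrpl20, Mrps33, Mrpl17, Mrpl33, Mrpl36, Mrpl12, Mrpl34, Mrpl2 and Mrpl42, at 0.60 to 0.92. Mrpl41 then had 0.88 ± 0.26 (limma adjusted p = 0.074), Mrpl14 0.53 ± 0.20 (0.17), Mrpl57 0.50 ± 0.13 (0.051) and Mrps18c 0.74 ± 0.20 (0.051), none of them past the threshold. That estimate depends on just 1 pair of arrays at 0 h, and a call lost there does not show that Epo had no effect.

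Hepatocyte markers moved with these groups. At 1 to 7 h, 9 of 11 were called higher with Epo and none lower (median 1.05), and 5 of 10 erythroid markers were called lower and none higher (median -0.28). The difference in hepatocyte markers was called as changing with time in 0 of 11 (limma, 1 at an unadjusted p under 0.05), and 11 of 11 fell over time in each series. Of 11 granulocyte markers 1 was called higher with Epo and 2 lower, with Mpo at -1.48. The part of other cells in the members' difference was not tested.

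The second comparison asked whether the difference changed over the 7 h. In 28 members the signed difference, Epo minus no Epo, passed the test as rising over the hours, here called growth. In 2 it passed the test as falling, here called shrinking. The shares were 7.25% and 7.97% of all genes, and 19.8% and 17.6% of the genes of like brightness. These words follow the sign of the slope and not the size of the gap. Mrps5 and Mrps15, both in the 28, were lower with Epo at 1 h and higher at 7 h. The median slope of the matched differences was 0.06 per hour on the log2 scale, and 0 over all genes. The median difference of the members was 0.35 at 0 h, 0.35 at 1 h, 0.53 at 2 h, 0.53 at 3 h, 0.50 at 4 h, 0.69 at 5 h, 0.66 at 6 h and 0.63 at 7 h. Members at least 1 higher with Epo numbered 3 at 0 h, 3 at 1 h, 14 at 2 h, 11 at 3 h, 13 at 4 h, 26 at 5 h, 25 at 6 h and 23 at 7 h, and in no hour was a member lower by 1. Over all genes the share at least 1 higher was 2.4% at 0 h, 1.79% at 1 h, 3.41% at 2 h, 3.28% at 3 h, 3.16% at 4 h, 4.6% at 5 h, 4.46% at 6 h and 4.51% at 7 h. Small subunit symbols made up 13 of the 28 (of 29 genes) and large subunit symbols 15 (of 47). Of the 29 members higher by at least 0.5 at 0 h, 10 grew further and 19 had no call for the change. With the mean of all probe sets of a gene 18 effects grew, and the count that shrank was 4 without the 1 h arrays, 1 without those of 2 h and 0 without those of 6 h. Among markers of other cells the slope was called positive in 3 of 11 granulocyte genes and called negative in none. These were Mpo (0.38 per hour), Prtn3 (0.30) and Ctsg (0.26), each steeper than any member. In them the series came closer: Mpo was 6.71 with Epo and 9.30 without at 1 h, and 6.16 and 6.43 at 7 h. The slope was called negative in 2 of 10 erythroid genes, Epor and Nfe2, and called positive in none. In these the series moved apart: Epor was 9.79 with Epo and 10.21 without at 1 h, and 10.07 and 11.44 at 7 h. The part of these markers in the members' change was not tested.

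Mrps10, the homologue of the bacterial protein uS10, had the steepest growth. Its value with Epo was 10.38 at 1 h, 10.24 at 4 h and 10.35 at 7 h, and without Epo it was 9.99 at 1 h, 9.52 at 4 h and 8.59 at 7 h. The series parted by 0.24 ± 0.03 per hour (limma adjusted p = 0.00025), while the arrays with Epo stayed between 10.24 and 10.60. Mrps9, the homologue of uS9, parted by 0.24 ± 0.04 per hour (limma adjusted p = 0.0011) although both series were lower at 7 h, at 8.20 with Epo and 6.89 without, against 9.01 and 8.99 at 0 h.

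Mrpl12 is the stalk protein that recruits translation factors and, outside the ribosome, binds the mitochondrial RNA polymerase. With Epo it lay at 11.92 at 1 h, 11.31 at 3 h and 11.24 at 7 h, and without Epo at 11.65, 10.82 and 10.05 at the same times. At 0 h the series differed by 0.02, and they parted by 0.19 ± 0.03 per hour (limma adjusted p = 0.0004). Its stalk partner Mrpl10 was higher with Epo by 0.38 ± 0.08 (limma adjusted p = 0.0019), with a slope of -0.01 ± 0.03 per hour that was not called. Other steep members were Mrpl20 (0.23 per hour), Mrpl17 (0.19) and Mrps5 (0.18). Mrps5, the homologue of uS5, which lines the entry of messenger RNA, began lower with Epo: it was 8.47 with Epo and 9.08 without at 0 h, and 8.43 with Epo and 8.01 without at 7 h. In the 2 with a slope called negative, Mrpl44 (-0.14 per hour) and Mrpl24 (-0.10 per hour), the value with Epo fell over time. The difference went from 0.05 at 1 h to -0.66 at 7 h in Mrpl44, so its series moved apart. In Mrpl24 it went from 0.35 to -0.05.

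**Figure D3:**
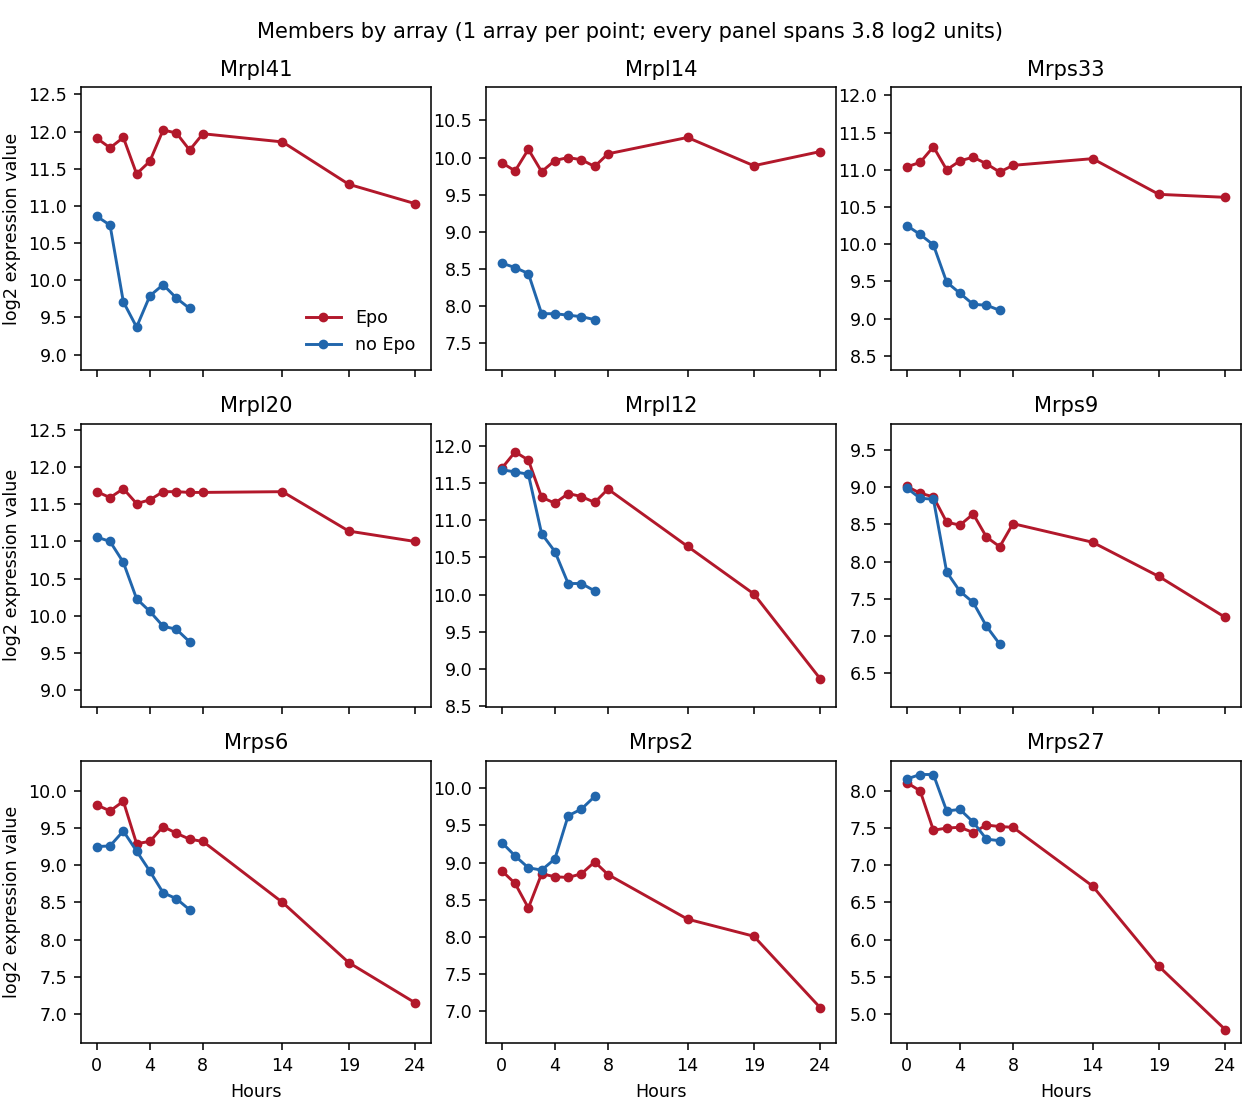
Log2 expression value of 9 members against hours, with Epo in red and without in blue, 1 array per point, each panel spanning 3.8 log2 units. Mrpl41, Mrpl14 and Mrps33 are apart from 0 h on, Mrpl12 and Mrps9 start together and part after 2 h, Mrps2 is higher without Epo, and Mrps6 and Mrps27 are lowest at 24 h.

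The series were next read each on its own. With Epo, 10 of 76 members fell over 0 to 8 h and none rose, against 5.74% and 2.34% of all genes, and 8.81% and 5.5% of the genes of like brightness, with a median slope of -0.02 per hour, and no member rose at an unadjusted p under 0.05 either (limma). Without Epo, 45 members fell over 0 to 7 h and 2 rose, against 15.4% and 13.3% of all genes, and 32.4% and 26.9% of the genes of like brightness. The median slope was -0.10 per hour (all genes 0.00). At 7 h the median member was 0.19 below its 0 h value with Epo and 0.55 below it without. With Epo 0 members were at least 1 below and without Epo 18, against 3.24% and 5.98% of all genes. Of the 45 that fell without Epo, 37 had no call over time with Epo and 8 fell in both. All 28 members whose Epo effect grew were among the 45. Both tests use the arrays without Epo at 1 to 7 h, so this overlap is in part built in. The falls with Epo depended on single arrays: 4 remained without the array of 0, 1 or 6 h and 2 without that of 7 h. Granulocyte markers were called as falling in 2 of 11 genes with Epo and in 6 of 11 without (median slope -0.11 per hour). Without Epo, Mpo fell by 0.50, Prtn3 by 0.46 and Ctsg by 0.26 per hour. Erythroid markers were called as rising in 5 of 10 genes with Epo and in 7 of 10 without, and none was called as falling. Their part in the members' course over time was not tested.

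With Epo, Mrps9 fell by 0.09 per hour, Mrps35 and Mrps25 by 0.08 and Mrpl12 by 0.07. The other 6 that fell were Mrps12, Mrpl34, Mrpl44, Mrpl42, Mrpl24 and Mrpl36, by 0.05 to 0.06 per hour. Without Epo the steepest fall was again that of Mrps9 (-0.33 ± 0.03 per hour, limma adjusted p = 2.2e-05). It was 8.99 at 0 h, 8.84 at 2 h, 7.86 at 3 h and 6.89 at 7 h, so the largest step came between 2 h and 3 h. Mrpl12 (-0.28 per hour) had 11.62 at 2 h and 10.82 at 3 h, and Mrps35 (-0.27 per hour) had 9.59 and 8.56 at those times. Mrps25 and Mrps10 followed at -0.23 per hour, with Mrpl36 and Mrpl20 at -0.22. The median over all members without Epo was 9.95 at 2 h and 9.72 at 3 h. The 2 that rose without Epo were Mrps2 (0.12 ± 0.04 per hour, limma adjusted p = 0.026), which was 8.90 at 3 h and 9.89 at 7 h, and Mrpl44 (0.08 ± 0.02 per hour, limma adjusted p = 0.022), a protein with a ribonuclease III fold, which was 9.34 at 4 h and 9.80 at 5 h. Without the 5 h array 1 of these rises was called, and without that of 6 h or 7 h none (limma), while quantile normalization gave 7.

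**Figure D4:**
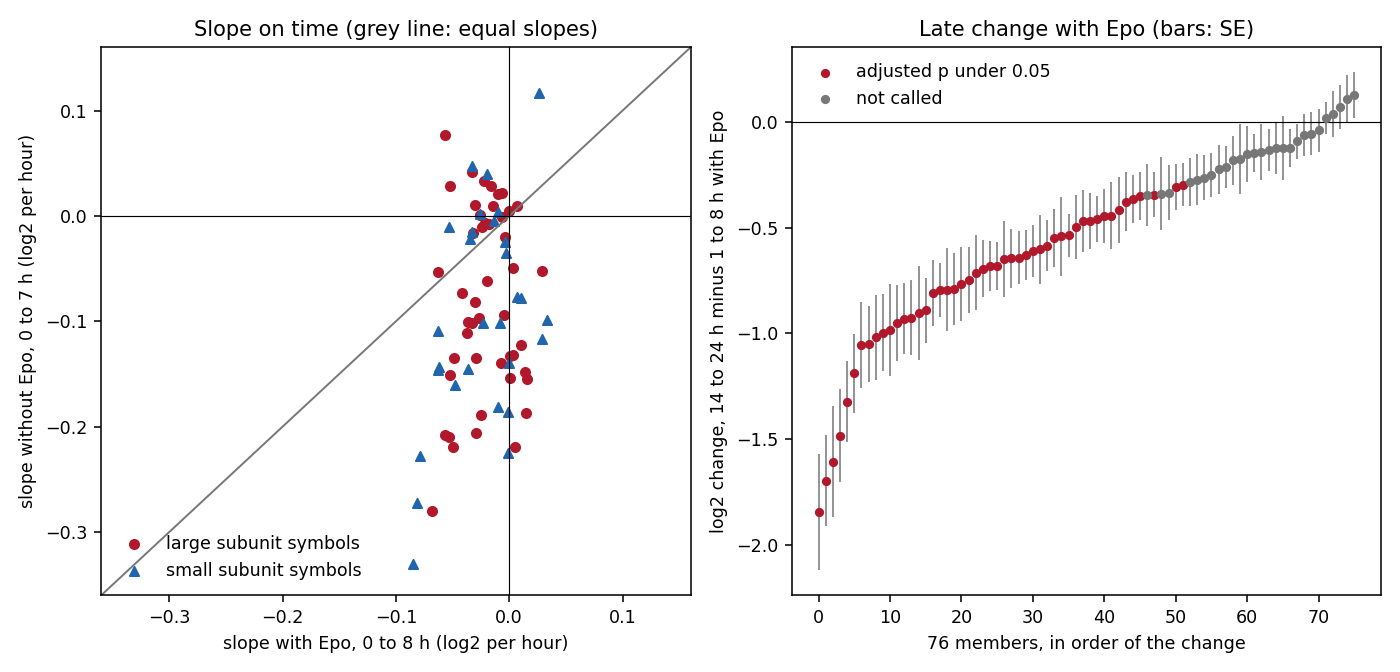
Left, the slope of each gene on time with Epo (0 to 8 h, horizontal) and without Epo (0 to 7 h, vertical), in log2 per hour, with circles for large and triangles for small subunit symbols. Most points lie under the grey line of equal slopes, down to Mrps9 at -0.33 without Epo. Right, the log2 change with Epo at 14 to 24 h against 1 to 8 h for the 76 members in order, with SE bars, red where the adjusted p was under 0.05. It runs from Mrps27 at -1.85 to Mrpl14 at 0.13.

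The last comparison set the 3 late arrays with Epo (14, 19 and 24 h) against the 8 at 1 to 8 h with Epo. No untreated arrays cover those hours. Of the 76 members, 49 fell and none rose (limma, 0 rises also at an unadjusted p under 0.05), against 18.5% and 17.6% of all genes, and 41.1% and 17.4% of the genes of like brightness. The median change was -0.47 (all genes 0.08, genes of like brightness -0.26). Among large subunit symbols 28 of 47 fell (median -0.42) and among small subunit symbols 21 of 29 (median -0.55), with 9 of the 10 mitochondria-specific small subunit genes. In 37 members all 3 late arrays were below all 8 earlier ones, as in 14.3% of all genes, and 9 members fell by at least 1, as did 6.62% of all genes. The member median over each array was 10.20 at 14 h, 9.98 at 19 h and 9.59 at 24 h, with the lowest on the 24 h array. Without that array 33 members fell and the median change was -0.30, and against the arrays of 5 to 8 h alone 32 fell. After quantile normalization 39 fell and the median change was -0.33.

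Mrps27, a mitochondria-specific protein with pentatricopeptide repeats, fell most. It was 6.72 at 14 h, 5.64 at 19 h and 4.79 at 24 h, against 7.44, 7.51 and 8.00 (lowest, median, highest) at 1 to 8 h. All late arrays were below all earlier ones, and the change of -1.85 ± 0.28 is a fall of 3.60-fold (limma adjusted p = 0.00017). Its Epo effect at 1 to 7 h was not called (-0.17 ± 0.12, limma adjusted p = 0.28).

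Mrps6, the homologue of bS6, was 8.50, 7.69 and 7.15 at 14, 19 and 24 h against 9.29, 9.39 and 9.86 at 1 to 8 h, a change of -1.70 ± 0.22 (limma adjusted p = 5.8e-05). Mrpl12 was 10.65, 10.01 and 8.87 at the late times against 11.23, 11.34 and 11.92 (-1.61 ± 0.26, limma adjusted p = 0.00033). In both genes the late arrays did not overlap the earlier ones. Mrps18b (-1.48), Mrpl19 (-1.32) and Mrps35 (-1.19) came next. Some of the members furthest above their values without Epo had no late call: Mrpl14 was 10.27, 9.89 and 10.08 at 14, 19 and 24 h against a median of 9.97 at 1 to 8 h (0.13 ± 0.11, limma adjusted p = 0.37), and Mrpl57 had a change of -0.09 ± 0.08 (limma adjusted p = 0.41). Hepatocyte markers were called lower late in 10 of 11 genes (median -3.34) and erythroid markers higher in 7 of 10 (median 0.48). Of 11 granulocyte markers 5 were called higher late and 3 lower. Their part in the members' fall was not tested.

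The 3 paralogues of bacterial protein bS18 gave different profiles. Mrps18c and Mrps18b are found in small subunits, Mrps18a in the large subunit. Mrps18c lay at 11.61, 11.69 and 11.97 (lowest, median, highest) at 1 to 7 h with Epo against 9.95, 10.28 and 10.88 without, a difference of 1.42 ± 0.11 (limma adjusted p = 3e-06), and its late change was 0.11 ± 0.11 (limma adjusted p = 0.46). Mrps18b lay at 10.12, 10.42 and 10.66 with Epo against 9.68, 9.94 and 10.34 without, so its groups overlapped. Its difference was 0.47 ± 0.11 (limma adjusted p = 0.0059), and its late change was -1.48 ± 0.22 (limma adjusted p = 0.00017), with 9.62 at 14 h, 9.14 at 19 h and 8.11 at 24 h. Mrps18a differed by 0.45 ± 0.08 (limma adjusted p = 0.00076) and changed by -0.61 ± 0.13 late (limma adjusted p = 0.0016). Mrps30, the other large subunit protein with a small subunit symbol, had no called Epo effect (0.12 ± 0.08, limma adjusted p = 0.29). The differences between paralogues were not tested.

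Read over all 5 comparisons, the members fell into many combinations of calls, several of them with 1 gene each. The shares of all genes with these combinations were not computed, so the counts do not show what is particular to the members. Some comparisons share arrays, so their calls are linked. The most frequent, in 15 genes, was higher with Epo and no other call, as in Mrpl48, Mrpl58 (a peptidyl-tRNA hydrolase built into the ribosome) and Mrps11. Another 12 genes had a positive, growing Epo effect, a fall without Epo, no call over 0 to 8 h with Epo and lower late arrays. Among these 12 were Mrpl17, Mrpl20, Mrps10 and Mrps7. A further 7 genes had the calls of the 12 and also a fall over 0 to 8 h with Epo. They were Mrpl12, Mrpl34, Mrpl36, Mrpl42, Mrps25, Mrps35 and Mrps9. In 10 genes the calls were those of the 12 without a called growth, as in Mrpl41 and Mrps6. In 7 genes the effect was positive and growing, the series without Epo fell and no fall with Epo was called, early or late: Mrpl13, Mrpl14, Mrpl33, Mrpl57, Mrps18c, Mrps28 and Mrps33. Mrpl4 was the single member with no call in any comparison.

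**Figure D5:**
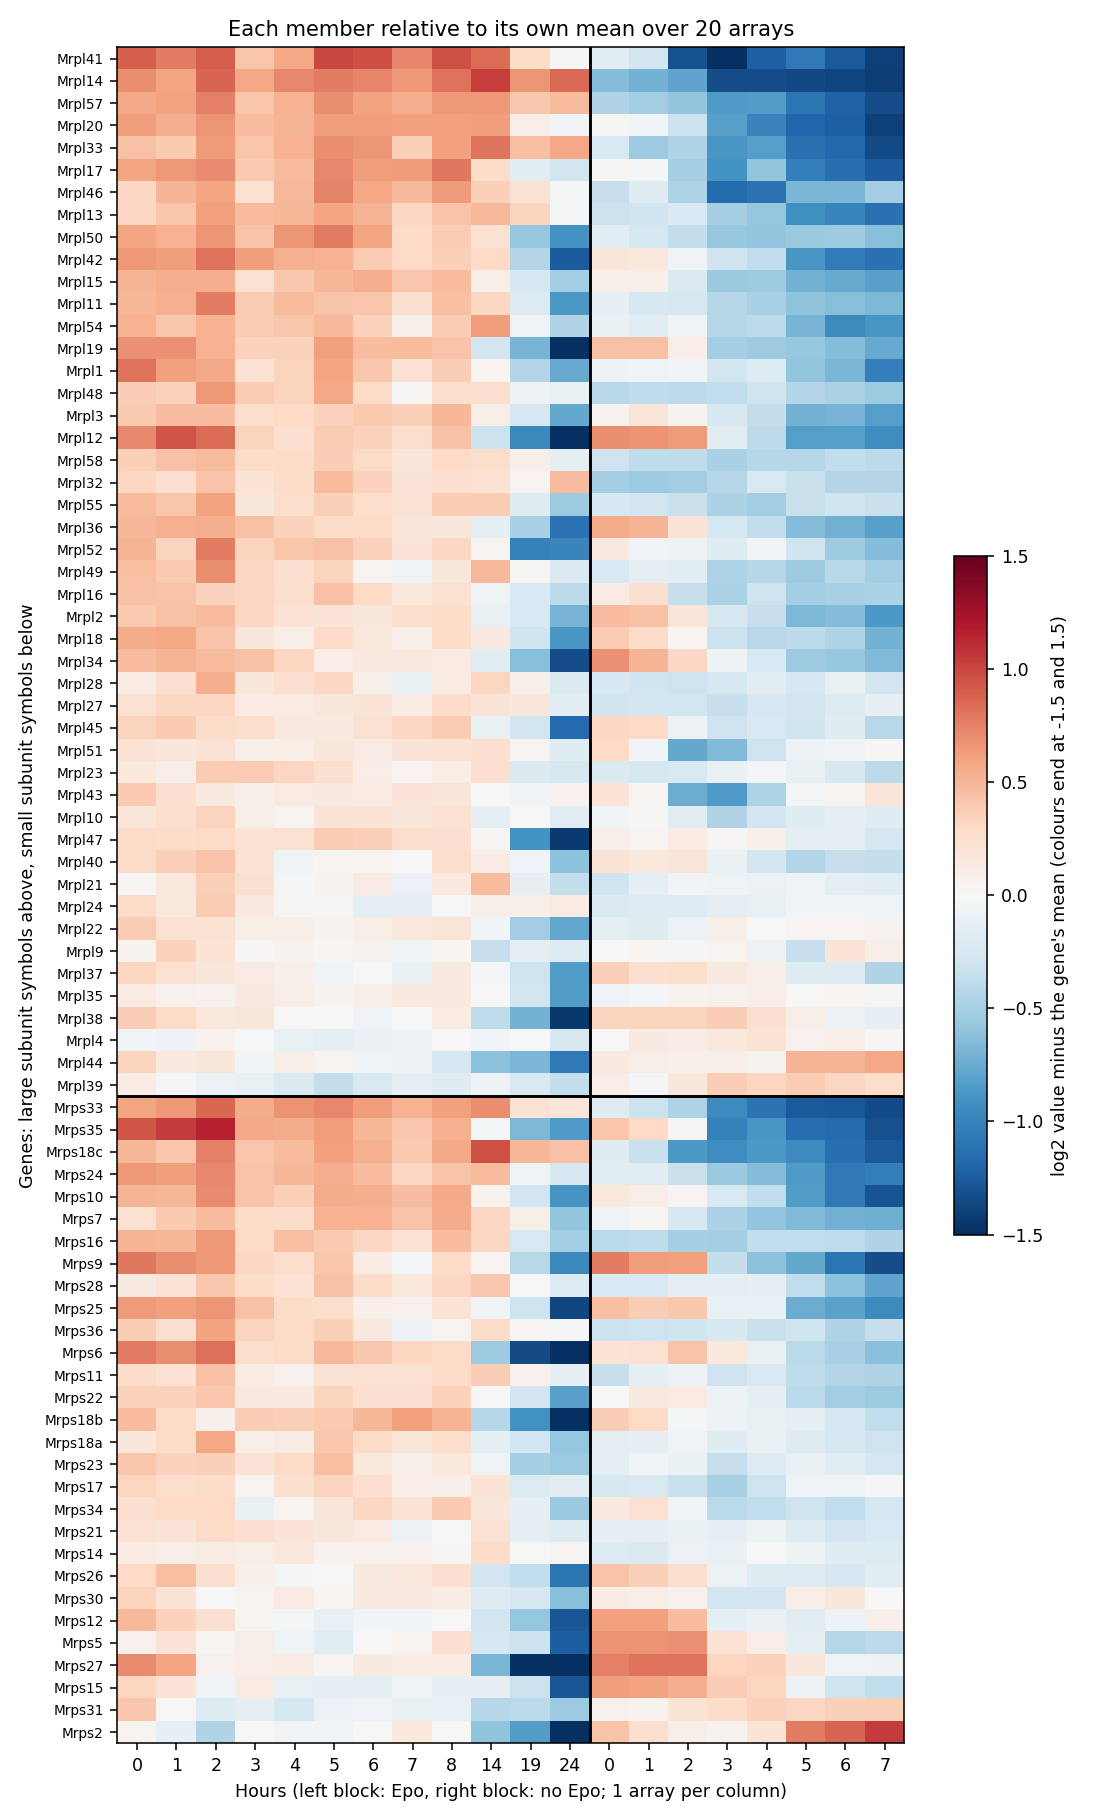
Log2 value of each of the 76 members on each of the 20 arrays, minus the gene's mean over the 20 arrays, with arrays with Epo in the left block and arrays without in the right block, each in order of hours. Large subunit symbols are above the line and small subunit symbols below, each in order of the Epo effect. Blue spreads over the right block from about 3 h and over the 19 h and 24 h columns of the left block, and the last rows of each part show the members that were not higher with Epo.

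Other genes of mitochondrial translation differed from the values without Epo in both directions at 1 to 7 h. In that comparison 18.2% of all genes were higher and 20.2% lower, as were 28.4% and 36% of the genes of like brightness. The shares called higher were 31.8% of assembly, 23.1% of translation factor and 25% of synthetase genes. Those called lower were 22.7%, 23.1% and 31.2%. Of 4 further ribosomal proteins with other names, Chchd1 (1.02) and Gadd45gip1 (0.48) were higher and Dap3 was lower (-0.32). Of 22 ribosome assembly genes 7 were higher and 5 lower. Fastkd2, an RNA-binding assembly factor, differed by 1.25 and Malsu1, which keeps the subunits apart during assembly, by 1.17, while Mrm1, a ribosomal RNA methyltransferase, had -1.66 and Ybey, an endoribonuclease, -1.62 on the log2 scale. Of 13 translation factor genes 3 were higher and 3 lower, with Slirp, a stabiliser of mitochondrial messenger RNA, at 1.32 and the release factor gene Mtrf1l at -0.88. Of 16 aminoacyl-tRNA synthetase genes 4 were higher, Yars2 most at 1.14, and 5 lower. Without Epo, 6 assembly genes fell over time and 5 rose (median slope 0.01 per hour), 9 translation factor genes fell and 2 rose, and 8 synthetase genes fell and 1 rose, against 15.4% falling and 13.3% rising over all genes. Late with Epo, 11 assembly, 8 translation factor and 13 synthetase genes were lower and 1 synthetase gene was higher, against 18.5% and 17.6% of all genes. The difference between these lists and the members was not tested.

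Of 13 genes of mitochondrial transcription and its regulators, 5 were higher with Epo at 1 to 7 h, among them the transcription factor gene Tfb2m (1.26) and the elongation factor gene Tefm (0.97), and 2 were lower, Yy1 (-0.91) and Gabpa, an ETS factor (-0.35). Over all genes 18.2% were higher and 20.2% lower in that comparison. Nrf1, which encodes nuclear respiratory factor 1, had -0.26 ± 0.15 (limma adjusted p = 0.2), Tfam, the packaging protein of mitochondrial DNA, 0.06 ± 0.07 (0.57) and Myc -0.07 ± 0.11 (0.65), none past the threshold. Late with Epo 10 of the 13 were lower, against 18.5% of all genes and 41.1% of those of like brightness. Polrmt had -1.96, Myc -1.72, Tfb2m -1.70 and Tfam -1.44. For the cytosolic ribosome, 46 Rpl and Rps genes had a median Epo effect of 0.12, with 24 higher and 10 lower. Their array medians of 13.58 to 13.72 are near the highest value in the table (14.6).

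The promoter letters were counted in the 67 members with an entry in the RefSeq table (GRCm38.p6), on both strands of 300 bases from 250 before the start to 50 after it. The ETS letters were in 25 members (37.3%), against 15.0% of the 14452 genes on the array with an entry and 28.0% of the 3692 of like brightness. The NRF1 letters were in 7 members (10.4%, against 3.09% and 5.63%), the YY1 letters in 13 (19.4%, against 7.54% and 10.6%) and the E-box in 5 (7.46%, against 10.2% and 13.8%). The letters AGATAAG, bound by GATA factors, were in 3 (4.48%, against 2.84% and 2.28%). These are descriptions of the windows with no test, and the NRF1 letters stood both in Mrpl17, which was higher with Epo, and in Mrpl39, which was lower.

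Genes with more than 1 probe set gave a check on the readings. For the Epo effect, called members had 64 further probe sets, of which 55 differed in the same direction and 36 were called so. Among the 24 of these with a mean log2 value of at least 7, 23 differed in the same direction. Opposite calls came from 2 probe sets. Mrpl49, a mitochondria-specific large subunit protein, was higher by 0.67 on the chosen probe set (mean 9.34) and had -0.86 on another (mean 8.69), so its direction is unsettled. Mrpl47 was higher by 0.33 on the chosen probe set (mean 9.82) and had -0.48 on a dim one (mean 4.67). For the late change 50 of 56 further probe sets moved in the same direction, with no opposite call. Without Epo, 43 of 55 did, and 1 dim probe set of Mrps9 (mean 4.86) rose by 0.14 per hour. Probe sets whose suffix marks possible cross-hybridisation were chosen for 8 members, among them Mrps6, Mrpl19 and Mrps12.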

How the data were processed

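Biotin-labelled RNA of 20 samples was measured on mouse arrays, 1 array per sample. The deposited values run from 1.37 to 14.6 and were taken as log2 for that reason. Neither labels nor file header say how the authors summarised and scaled them (not given in the sources used here). Of 45101 probe sets, 34945 named 1 gene in the platform annotation, 932 several, 64 were controls and 9160 were unnamed. Each of 18193 genes was read from the probe set with the highest mean, with no filter on dim genes.

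Each comparison was fitted over all genes with limma 3.58.1 in R 4.3.3 (empirical Bayes with trend) with calls at an adjusted p under 0.05 (Benjamini-Hochberg). The Epo effect had time as a block (7 pairs). Its change was a regression of the 7 matched differences on hours, which is also the test of the difference between the series. Slopes with Epo (0 to 8 h) and without (0 to 7 h) had 9 and 8 arrays, and the late comparison 11. The scripts were tested on simulated data with 200 changed genes. Promoters came from RefSeq (GRCm38.p6). Python 3.11.15 with matplotlib 3.10.9, numpy 2.4.6 and pandas 2.3.3 served for the other tables and the plots.

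Members and lists were chosen with earlier results of these data known. Members named with values were the 6 largest calls up and down per comparison, up to 3 genes of each other list, the brightest and dimmest, those with probe sets called in opposite directions, the stalk pair, the bS18 paralogues, Mrps30, Tfam, Nrf1, Gabpa and Myc; others stand as examples of a count. Alternatives were genes above the median brightness, a mean over each gene's probe sets, quantile normalization, median centring of each array, no variance trend, each time left out, no time block and other uses of the 0 h and early arrays. The combination of quantile normalization with the own 0 h difference was added after seeing the data.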

Additional observations from a re-analysis of the deposited data

Results flagged for a closer look

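The signed Epo effect (Epo minus no Epo) rose over 1 to 7 h in 28 members and fell in 2, by the test of the difference between the series. The members named for it were, in log2 per hour, Mrps10 and Mrps9 (0.24 each), Mrpl20 (0.23), Mrpl12 and Mrpl17 (0.19 each), Mrps5 (0.18), Mrpl19 (0.17), Mrpl36 (0.16), Mrps18b, Mrps33 and Mrps35 (0.15 each), Mrps25 (0.14), Mrpl34 and Mrpl57 (0.13 each), Mrpl14 (0.12) and Mrps18c (0.11). The signed effect fell in Mrpl24 (-0.10) and Mrpl44 (-0.14). In both the value with Epo came to lie below that without, with a difference at 7 h of -0.05 in Mrpl24 and -0.66 in Mrpl44. Dixon's test was run on the arrays without Epo of the 28 members that the rule for named genes gives, which is another set than the 28 with a growing effect and holds the 18 genes listed here. In 0 of these was an array set apart from the other 7. The course over time was not removed first and widens the range, so an outlying array could go unfound.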

How the results depend on the processing

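The counts of members moved by over 1.5 times under few settings. For the Epo effect they did so with the own 0 h difference subtracted, 10 higher and 0 lower, and 14 higher and 0 lower when this followed quantile normalization. The count of growing effects was 18 with the mean of all probe sets, and that of shrinking effects 1 without variance trend and 4 with 0 h as an eighth difference. Falls over time with Epo numbered 6 after quantile normalization, 3 without variance trend and 4 without the 0 h array. Rises without Epo numbered 7 after quantile normalization, and late falls 32 against the arrays of 5 to 8 h alone. With each time left out in turn, members higher with Epo numbered 57 to 59 and lower 3 to 3, growing effects 22 to 27 and shrinking 0 to 4, falls with Epo 2 to 11, falls without Epo 38 to 44, rises without Epo 0 to 2 and late falls 33 to 59. The cause of these shifts was not tested. Centring each array on its median turned the balance of all genes from 3312 higher and 3669 lower to 2389 and 4476 for the Epo effect, and from 3207 and 3372 to 2202 and 3738 for the late change, with 57 and 4 members, and 0 and 55 members. Without the time block, 59 members were higher and 3 lower. Replicate numbers are times here, and that block is the pairing.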
